A study of Rattus norvegicus with 6 samples.

Results

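The 5018 CpGs described here were fully methylated in some of 6 rat hippocampi and fully unmethylated in the others. They were selected on the measured values: a CpG on chromosomes 1 to 20 was taken when its coverage was at least 20 reads in all 6 libraries, when every library read at most 5% or at least 95% methylated, and when both states occurred. They were 0.311% of the 1613247 CpGs with that coverage, which were 7.28% of the 22152234 CpGs listed for these chromosomes and chromosome X. At 2083 of them (41.5%) every library read exactly 0% or 100%. CpGs were found on both sides of the limit: the least extreme value of 1058 members was over 4% and up to 5% away from the nearer end of the scale. At 562 CpGs that were left out it was over 5% and up to 6% away. The median coverage over all 6 libraries was 38 reads at the former and 39 at the latter, which is not the coverage behind the least extreme values. At a coverage of 20, a single differing read gives 5%, so counts of reads set a step at the limit.

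Whole-genome bisulfite sequencing was performed on hippocampi of 3 iron-sufficient and 3 iron-deficient Sprague-Dawley pups dissected at postnatal day 15. Dams of the iron-deficient group were fed 4 ppm iron from gestational day 2 to postnatal day 7 and 200 ppm iron afterwards, while dams of the iron-sufficient group were fed 200 ppm iron throughout. The dam of each pup was not given in the sources used here, and each animal was represented by 1 library, so that a difference between animals and a difference between libraries cannot be told apart.

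CpG methylation is a chemical mark on cytosine that is copied to the daughter strand at cell division by a maintenance methyltransferase. In mammalian tissue most CpGs outside CpG islands are methylated and most CpGs within islands, which are often at promoters, are not. A tissue of many cells therefore often reads mostly methylated or mostly unmethylated at a CpG. Imprinted genes, at which only the copy from one parent is methylated, and mixtures of cells read in between. Bisulfite converts unmethylated cytosine so that it is read as thymine. A fraction of methylated reads therefore cannot tell an unmethylated cytosine from a thymine in the animal's own DNA. Genotypes were not measured here, and whether members coincided with sequence variants was not tested.

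The libraries differed in ways that touched the members. Their summed coverage ran from 432692526 to 780127386 reads over CpGs, the median coverage per listed CpG ran from 17 to 33, and the correlation of methylation across eligible CpGs ran from 0.693 to 0.850 over the 15 pairs of libraries. CpGs that read 40% to 60% in the pooled reads of the 5 other libraries were examined in the library left out, at a coverage of 20 to 40 reads with a median of 29 to 30. There, iron-sufficient replicates 1, 2 and 3 read at most 5% or at least 95% at 14.6%, 61.3% and 43.7% of such CpGs, and iron-deficient replicates 1, 2 and 3 did so at 33.1%, 53.0% and 17.8%. The spread of these values equalled that of 3.20, 1.40 and 1.74 independent reads in the iron-sufficient libraries and of 2.02, 1.51 and 2.93 in the iron-deficient ones, although at least 20 reads stood behind each value. This spread includes any true difference between the animals. A count of 20 reads was thus not shown to be 20 independent molecules, and intervals computed from read counts cover counting error only.

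In most members a single library stood against the other 5. The methylated state was present in 5 of 6 libraries at 3690 members (73.5%, 95% exact binomial interval 72.3% to 74.8%) and in a single library at 1040 (20.7%, 19.6% to 21.9%). These intervals treat the CpGs as independent, although all come from the same 6 libraries, and cover counting error only. The methylated state was present in 4 libraries at 169 members (3.37%), in 3 at 58 (1.16%) and in 2 at 61 (1.22%). At least 2 libraries were therefore in each state at 288 members (5.74%), and 55 of the 62 possible patterns occurred. For scale, 153049 eligible CpGs (9.49%) were at most 5% methylated in all 6 libraries and 97757 (6.06%) were at least 95% methylated in all, while the difference between the highest and the lowest library reached 90 percentage points at 148492 (9.20%).

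**Figure D1:**
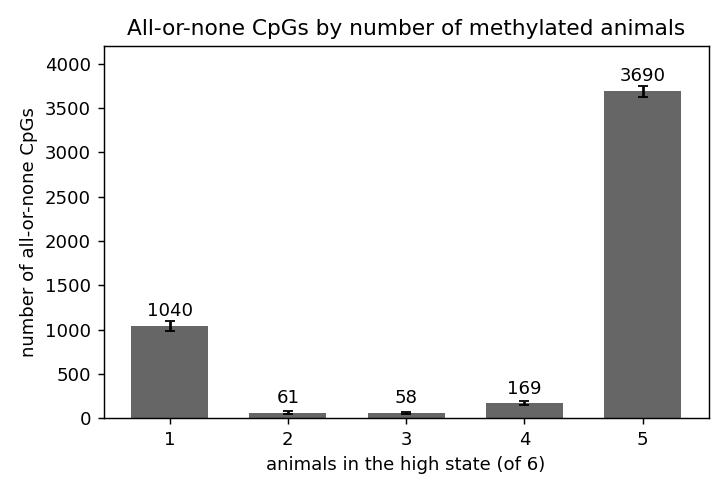
Number of all-or-none CpGs by how many of the 6 libraries were methylated (horizontal axis), with 95% exact binomial intervals as bars. The intervals treat the CpGs as independent. The classes with 1 and with 5 methylated libraries hold 1040 and 3690 CpGs, and the 3 classes between them hold 61, 58 and 169.

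The members with 1 library apart were spread unevenly over the libraries. Iron-sufficient replicates 1, 2 and 3 were the library apart at 28, 2571 and 590 members, and iron-deficient replicates 1, 2 and 3 at 284, 1203 and 54. The order of the 6 libraries in this count was the same as their order in the share of extreme values at CpGs of intermediate level given above. Iron-sufficient replicate 2 alone accounted for 54.4% of the 4730 members with 1 library apart and 51.2% of all members. Without that library, 5986 of 2716489 eligible CpGs met the rule in the other 5, a smaller share than with all 6. A single library stood against 4 at 5553 of the 5986 (92.8%), and 66 (1.10%) separated the diets. The part of the libraries' unequal spread in the number of members was not tested.

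**Figure D2:**
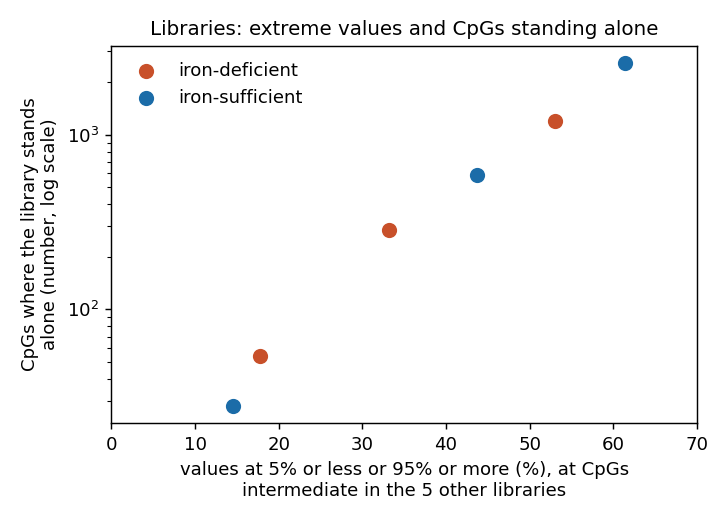
Number of members at which a library stood apart from the other 5 (vertical axis, log scale) against its share of values of at most 5% or at least 95% at CpGs of intermediate level (horizontal axis, %), 1 point per library, coloured by diet. The library with the lowest share, 14.6%, has 28 such members and the one with the highest, 61.3%, has 2571.

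The state of a member was compared with the neighbouring CpGs, taken as CpGs within 200 nucleotides that were not members and were covered by 10 or more reads in every library. Of 4200 members with such neighbours, 371 (8.83%, 7.99% to 9.73%) were followed by them, meaning that the neighbours were at least 50 percentage points more methylated in the libraries of the methylated state than in the others. At 1157 members (27.5%) the difference was 10 to 50 points, and at 2672 (63.6%) it was below 10 points or in the opposite direction. The median difference was 0 points, with quartiles of -6.03 and 20.9. Without iron-sufficient replicate 2, 325 of 5037 members (6.45%) were followed, which is below the interval given. That interval treats the members as independent, and without that library the rule chose a different set of members. Why the share differed was not tested. Other members nearby were not counted as neighbours. Among 3802 members with neighbours but no other member within 200 nucleotides, 291 (7.65%) were followed and 2564 (67.4%) were not.

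The 3 kinds of member did not all lie in the same surroundings. Members with 1 methylated library had a median of 46 listed CpGs within 500 nucleotides and neighbours at a median of 7.20%, against 69 CpGs and 2.47% for CpGs that were unmethylated in all libraries and 16 CpGs and 70.1% for all eligible CpGs. Members with 1 unmethylated library had a median of 13 CpGs within 500 nucleotides and neighbours at 89.2%, and the CpGs methylated in all libraries had 13 and 92.0%. Members with at least 2 libraries in each state had 12 CpGs and neighbours at 87.6%. The first kind therefore lay in CpG-dense, sparsely methylated sequence as islands are, and the other 2 kinds in CpG-poor, methylated sequence. Their lowest coverage among the libraries was similar, with a median of 24, 23 and 22 reads.

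Neighbours of members with 1 methylated library were higher in that library more often than the reverse was seen at members with 1 unmethylated library. Of 989 members of the first kind, 108 (10.9%) were followed, 394 (39.8%) were followed in part and 487 (49.2%) were not, with a median difference of 10.2 points. Of 2991 members with 1 unmethylated library, 258 (8.63%) were followed and 2037 (68.1%) were not, with a median of -1.10 points. Of 220 members with at least 2 libraries in each state, 5 (2.27%) were followed and 148 (67.3%) were not, with a median of 2.88 points. The differences between these kinds are given as counts and were not tested, since CpGs of 1 library are not replicates. The kinds also differed in their median number of neighbours, which was 11, 3 and 2 in the order given. The part of this number in the shares was not tested.

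The mean difference at the neighbours was largest at short distances. Averaged over members, neighbours 1 to 50 nucleotides away were 17.6 points higher in the libraries of the methylated state, those farther away and up to 100 nucleotides 7.70 points, those up to 200 nucleotides 2.32 points and those up to 500 nucleotides -0.223 points. The mean rested on a minority of members: the medians of the 4 bins were 0, -1.03, -1.84 and -2.08 points. Within 50 nucleotides, 19.9% of members were followed. By library apart, the first 3 bins ran from 7.89 to 20.3, from 2.05 to 10.3 and from -0.496 to 3.67 points, with iron-sufficient replicate 2 the highest and iron-deficient replicate 2 the negative one in the last of them. With the rule applied to the other 5 libraries, leaving out iron-sufficient replicate 2 gave 13.9, 4.37 and 1.07 points, an alternative added after seeing the data, and leaving out any other library gave 16.4 to 17.3, 6.69 to 7.79 and 1.82 to 2.71 points.

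The fall with distance was seen in each kind of member. At members with 1 methylated library, neighbours within 50 nucleotides were at 42.3% in that library and at 12.4% in the others, a mean difference of 29.9 points, and 31.1% of these members were followed. The difference was 14.6 points in the bin up to 100 nucleotides and 4.51 points in that up to 200. At members with 1 unmethylated library the means of the first 3 bins were 13.4, 3.96 and 1.21 points, and at members with at least 2 libraries in each state 10.9, 6.26 and 2.12 points. The libraries with adapters were selected for 300 to 600 nucleotides and the reads were 100 long, so that a read can cover both a member and its neighbours in the first bins.

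**Figure D3:**
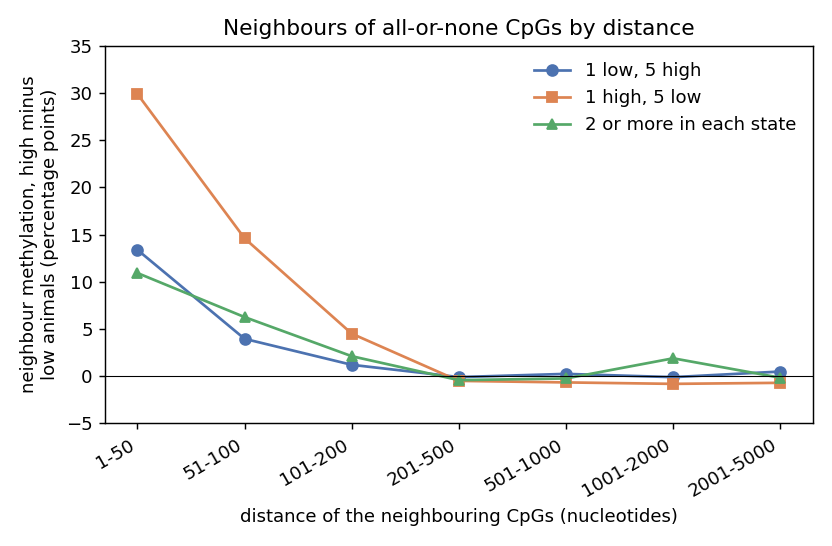
Mean difference in methylation of neighbouring CpGs (libraries of the methylated state minus the others, percentage points) against distance from the member in nucleotides, for each kind of member. The curve of members with 1 methylated library starts at 29.9 points and that of members with 1 unmethylated library at 13.4, and all curves are near 0 beyond 200 nucleotides.

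The relation was then described by animal, with no test, since a read that set a member's value can also cover its neighbours and each animal is set against the same others. Within the members at which an animal stood apart, the neighbours were higher in the methylated state in each of the 6 animals, by 6.05, 11.4 and 6.87 points for iron-sufficient replicates 1, 2 and 3 and by 7.64, 8.47 and 11.7 points for iron-deficient replicates 1, 2 and 3. The mean was 8.70 ± 2.37 points (SD, n = 6), and 7.47 ± 1.65 points (SD, n = 5) without iron-sufficient replicate 2. The values rest on unequal numbers of members, from 24 to 2243. This comparison was added after the first results were seen. The planned one, which compares each animal's neighbours between its methylated and its unmethylated members and so mixes different places, gave 65.7, -2.40, 48.3, 59.4, 33.4 and 67.3 points in the same order. Its mean was 45.3 ± 26.6 points (SD, n = 6), positive in 5 of 6 animals, and 27.0 ± 17.6 points (SD, n = 5) without iron-sufficient replicate 2. The part of the surroundings of the kinds of member in this planned difference was not tested, and the difference is read no further.

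The coverage of the 2 states is given as a description, since the rule used both coverage and methylation. Relative to each animal's median over eligible CpGs, the median coverage of its unmethylated members minus that of its methylated members was 0.175, -0.0909 and -0.0566 for iron-sufficient replicates 1, 2 and 3 and 0.0377, -0.0968 and 0.0857 for iron-deficient replicates 1, 2 and 3. The mean was 0.00903 ± 0.109 (SD, n = 6), positive in 3 of 6 animals. The sign of the mean changed under other settings.

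Members were mostly single. Another member lay within 200 nucleotides of 422 members (8.41%), a share that depends on how many CpGs met the rule. Of the members with 1 methylated library, 25.3% were in such clusters, against 4.17% of those with 1 unmethylated library and 1.74% of those with at least 2 libraries in each state. The median number of listed CpGs within 500 nucleotides was 46, 13 and 12 for these kinds, in the same order. More CpGs near a member leave more that can also meet the rule, and the part of this density in the shares was not tested. Without iron-sufficient replicate 2, 4.36% of members had another one within 200 nucleotides.

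Neighbouring members shared their pattern at very short range. Of 233 consecutive pairs 1 to 50 nucleotides apart, 219 (94.0%) had the same libraries in each state, and of 15 pairs over 50 and up to 200 nucleotides apart 11 (73.3%) did. The share was 34.1% of 91 pairs up to 5000 nucleotides apart, 23.1% of 1011 pairs up to 100000 and 22.6% of 3648 pairs farther apart. These shares are a description only, since the rule used the same values to choose both members of a pair. At short range a read can also cover both, and this holds for members of the same cluster as well. The shares also depend on the unequal numbers of members per library, and the share expected from these was not computed.

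The 422 members formed 174 clusters with a median span of 14 nucleotides and a longest span of 159. All members of a cluster had the same pattern in 156 clusters and differed in 18. Clusters had 2 members in 134 cases, 3 in 23 and 4 to 7 in the rest. Of the 40 clusters with at least 3 members, 34 consisted of members with 1 methylated library and 6 of members with 1 unmethylated library, though not always the same library at each member, and 0 consisted of members with at least 2 libraries in each state. The part of CpG density in these counts was not tested. No cluster separated the diets.

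The 8 clusters with the most members were all set apart by 1 library, the same one in each (iron-sufficient replicate 2), which also had the lowest coverage of the 6 in most of them. Since that library set apart over 50% of all members, the choice of clusters by size favoured it. Coordinates are those of the files on rn4. No annotation of that build was used here, so genes are not named.

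The cluster with the most members in the shortest span was 7 CpGs in 44 nucleotides on chromosome 14 (87232506 to 87232549). Pooled over these CpGs, iron-sufficient replicates 1, 2 and 3 read 0.236%, 100% and 0% and iron-deficient replicates 1, 2 and 3 read 0.568%, 0.478% and 0.264%, at mean coverages of 35 to 100.6 reads. The 80 neighbours within 1000 nucleotides read 0.998%, 8.79%, 2.12%, 1.73%, 5.64% and 2.62% in the same order. The difference of the cluster was thus nearly absent from its flanks, although the library apart was also the highest there.

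The other cluster of 7 CpGs lay on chromosome 13 (40948234 to 40948359), where the library apart read 100% and the others 0% to 1.21%. All 15 CpGs with a coverage of at least 10 between its ends together read 75.7% in that library and 0.414% to 2.09% in the others. Its 33 flanking CpGs read 15.5% and 2.97% to 6.36%. Members were thus a part of a stretch in which the remaining CpGs shifted as well.

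Clusters of 6 CpGs lay on chromosome 16 (82635512 to 82635555), chromosome 13 (66653837 to 66653905) and chromosome 16 (19221068 to 19221140). The library apart read 95.8%, 97.9% and 100% in them and the others at most 0.858%, 1.55% and 3.70%. The flanks of the first cluster read 20.7% in that library and 1.64% to 8.30% in the others, and those of the second 8.44% and 2.07% to 7.72%. The third differed in its surroundings, since its 7 flanking CpGs were methylated at 76.6% in the library apart and at 47.6% to 69.9% in the others.

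The remaining cluster of 6 CpGs, on chromosome 8 (111669456 to 111669506), was the only one of the 8 with an unmethylated library. It read 0% there, at a mean coverage of 29 reads, and 96.1% to 100% in the other 5 libraries. Its 9 flanking CpGs read 94.4% in the library apart and 91.3% to 99.1% in the others, so the library apart lay within the range of the others outside the cluster. The 2 clusters of 5 CpGs on chromosome 12 (46595457 to 46595476 and 27252661 to 27252693) read 100% in the library apart and at most 0.831% in the others, with flanks of 9.70% against 0.910% to 2.18% and of 26.4% against 1.29% to 6.20%.

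**Figure D4:**
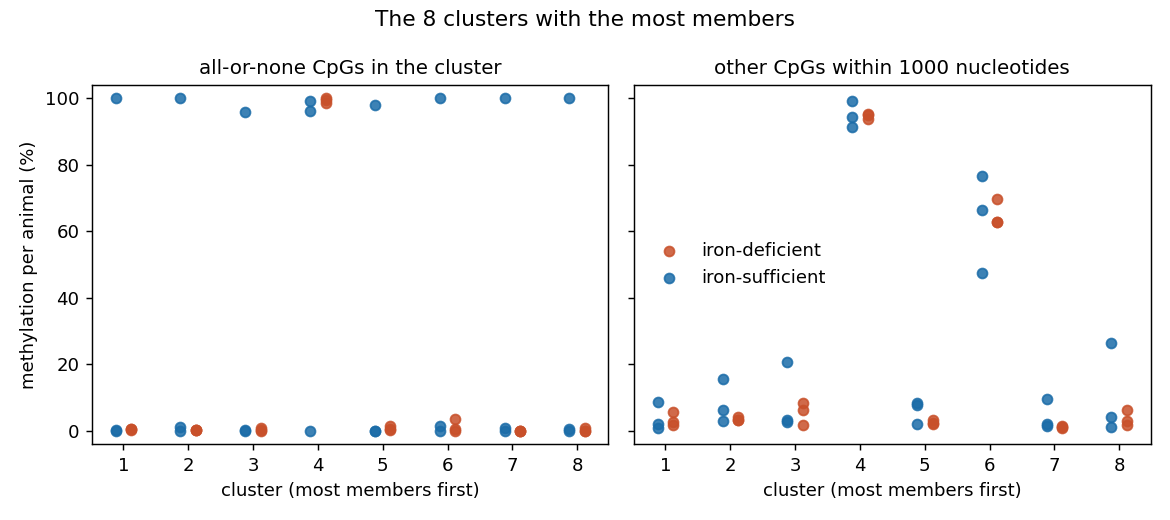
Methylation (%) of the members in each of the 8 named clusters (left) and of other CpGs within 1000 nucleotides (right), 1 point per library, coloured by diet, with the clusters ordered by their number of members. In each cluster 1 library lies at the end of the scale opposite to the other 5, while on the right that library reaches at most 26.4% in 6 of the 7 clusters at which it is methylated.

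Isolated members with the highest coverage in their shallowest library were examined next. On chromosome 8 (117839185), iron-sufficient replicates 1, 2 and 3 read 100%, 2.78% and 99.5% and iron-deficient replicates 1, 2 and 3 read 100%, 99.2% and 100%, at coverages of 69 to 183. Its 5 flanking CpGs read 49.0% to 60.7% in all libraries, and the library apart was at 50.9%. The difference was present at the CpG itself and not beside it.

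A member on chromosome 7 (23646576) had 3 libraries in each state and did not follow the diets. Iron-sufficient replicates 1, 2 and 3 read 98.3%, 98.7% and 0% and iron-deficient replicates 1, 2 and 3 read 95.1%, 0% and 0%, at coverages of 59 to 120. Its 7 flanking CpGs read 85.2%, 99.8% and 71.9% and 93.2%, 51.3% and 79.9% in the same order. The flanks of the methylated libraries were all above those of the unmethylated ones, but by far less than at the CpG itself.

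The other 2 isolated members were set apart by a different library each. On chromosome 8 (31588171) iron-deficient replicate 3 read 100% of 66 reads and the other 5 libraries 0%, with coverages of 56 to 100. Its 9 flanking CpGs read 80.1% in that library and 64.2% to 74.9% in the others. On chromosome 15 (59765738) iron-deficient replicate 2 read 2% of 50 reads and the others 98.1% to 100%, while its 17 flanking CpGs read 89.3% and 90.03% to 95.97%.

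The members were found on all 20 autosomes examined. Their density ran from 2.70 members per 1000 eligible CpGs on chromosome 12 to 3.83 on chromosome 18. Chromosome 1 held the most, 498.

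The patterns were then compared with the diets. At 3252 members (64.8%) the state varied among the iron-sufficient libraries only, at 1579 (31.5%) among the iron-deficient ones only and at 165 (3.29%) within both. The state separated the diets at 22 members (0.438%), of which 12 were methylated in the iron-deficient libraries and 10 in the iron-sufficient ones. Over all eligible CpGs, the values of the 2 diets did not overlap at 5.28%, with 2.81% higher and 2.47% lower in the iron-deficient group. Members with 1 library apart cannot separate the diets, so the share of members cannot be read against that background. Of the 288 members with at least 2 libraries in each state 22 (7.64%) separated them.

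Among the 58 members with 3 libraries in each state, the split by diet was the most frequent of the 10 possible ones, with 22 members (37.9%), while the other 9 splits held 0 to 9 members with a median of 4. Against a mean of 4 for those splits, the ratio was smaller under other settings, with 84 CpGs for the diets and a mean of 38.4 for the other 9 at a minimum coverage of 10. With 1 library left out in turn, which sets 2 libraries against 3, the split by diet held 44 to 151 against means of 40.2 to 105 for the other 9, and the 2 were closest without iron-deficient replicate 2, at 44 against 40.2. The split was singled out after these counts were known, and no test was made. Where 2 libraries stood against 4, the 2 were of the same diet at 68 (40.2%) of the 169 members with 2 unmethylated libraries and at 33 (54.1%) of the 61 with 2 methylated ones. Counted over pairs of libraries at the 288 members, the 6 pairs of the same diet were in opposite states at 117 to 175 members and the 9 pairs of different diets at 122 to 193, ranges that overlap widely.

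The 22 diet-separating members were single CpGs. None had another member within 200 nucleotides, 12 of them read only 0% or 100%, and their coverage ran from 20 to 311 reads per library. Neighbours within 200 nucleotides were measured at 20 of them and followed at 0, while of the 15 with neighbours within 50 nucleotides 13.3% were followed there, with a mean difference of 10.9 points and a median of -0.876. These CpGs come from the same 6 libraries and are not replicates of the diets. The median difference at the neighbours was 0.198 points, from -16.7 to 46.6, and 5 members had a difference of 10 to 50 points.

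The extremes of these neighbours were as follows. On chromosome 18 (74961852), the 3 iron-sufficient libraries read 0% with 31, 43 and 20 reads and the 3 iron-deficient ones 100% with 52, 74 and 43 reads, and its 2 neighbours were 46.6 points higher in the iron-deficient group. On chromosome 7 (33257423), the iron-sufficient libraries read 2.13%, 0% and 0% and the iron-deficient ones 100%, 100% and 95%, and its 2 neighbours differed by -16.7 points, in the opposite direction. On chromosome 18 (77270940), with the deepest coverage of the 22, the iron-sufficient libraries read 98.1%, 100% and 96.8% with 53, 39 and 95 reads. The iron-deficient ones read 0% with 246, 311 and 138 reads, and its 5 neighbours were 29.9 points higher in the iron-sufficient group. The median coverage of eligible CpGs was 40, 44 and 53 reads in the iron-sufficient and 53, 62 and 35 in the iron-deficient libraries. Relative depth thus also differed between the diets at this CpG, and its part was not tested.

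Members that separated the diets often lay within 500 kb of each other. They were on 10 chromosomes, with 6 on chromosome 7, 6 on chromosome 18 and 3 on chromosome 4. Another member with the same split lay within 500 kb of 12 of the 22 (54.5%), but within 10 kb of 0. For the other splits with 3 libraries in each state the share within 500 kb was 2 of 36 (5.56%), and for those with 2 against 4 it was 15 of 230 (6.52%). The number of members per split differed, with 22 for the diets and a mean of 4 and of 15.3 for the others, and its part in these shares was not tested. The comparison was made after the positions were seen and has no test.

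With the minimum coverage at 10, 84 CpGs separated the diets and 39 of them (46.4%) had another within 500 kb, 7 (8.33%) within 10 kb and 3 within 1 kb. The shares were 58 of 346 (16.8%) for the other splits with 3 libraries in each state and 377 of 1973 (19.1%) for those with 2 against 4, whose splits held a mean of 131.5 CpGs. The 84 include the 22, and of the 62 added ones 24 had another within 500 kb. With 1 library left out in turn at a coverage of 20, the share for the split by diet ran from 35.3% to 54.5% in 5 cases, against 10.7% to 24.6% for the other splits with at least 2 libraries in each state. Without iron-sufficient replicate 1 it was 30 of 151 (19.9%) against 162 of 806 (20.1%), so the difference was not present there.

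Joined from each member to the next within 500 kb, the diet-separating members formed 5 groups, of which 1 spanned more than 500 kb in all, and they did not all have the same direction. They were 2 members higher in the iron-deficient group on chromosome 4 (116032749 to 116494492), 2 lower ones on chromosome 7 (23054433 to 23221727) and 2 higher ones on chromosome 18 (74863501 to 74961852). A group on chromosome 7 (33172278 to 33459011) had 2 higher members and 1 lower, and one on chromosome 18 (77270940 to 77853471) had 1 higher and 2 lower. At a minimum coverage of 10 there were 11 groups with 39 CpGs on 6 chromosomes, of which the last-named interval on chromosome 18 held 8, with 3 higher and 5 lower. CpGs of the same split but of opposite state thus lay in the same interval.

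Consecutive members were then taken over all splits with at least 2 libraries in each state, those separating the diets included. The same split was shared by 5 of 14 pairs (35.7%, 95% exact binomial interval 12.8% to 64.9%) within 100 kb, 9 of 52 (17.3%) between 100 kb and 1 Mb, 7 of 76 (9.21%) between 1 and 5 Mb and 11 of 126 (8.73%) beyond. The first interval overlaps those of the other bins, and no test was made. Consecutive members with 1 library apart set the same library apart in 611 of 1221 pairs (50.04%), 1037 of 2774 (37.4%), 239 of 691 (34.6%) and 9 of 24 (37.5%) in these 4 bins, which does not fall steadily. The first bin includes pairs within 200 nucleotides, most of which shared their pattern as given above. The share expected from the unequal numbers of members per library was not computed. The longest runs of one split had 3 members each, one on chromosome 14 (18646090 to 18923909), which set 2 libraries against 4, and the diet-separating one on chromosome 7 named above. Whether such stretches match ancestry shared between the animals was not tested, since neither genotypes nor litters were given in the sources used here.

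**Figure D5:**
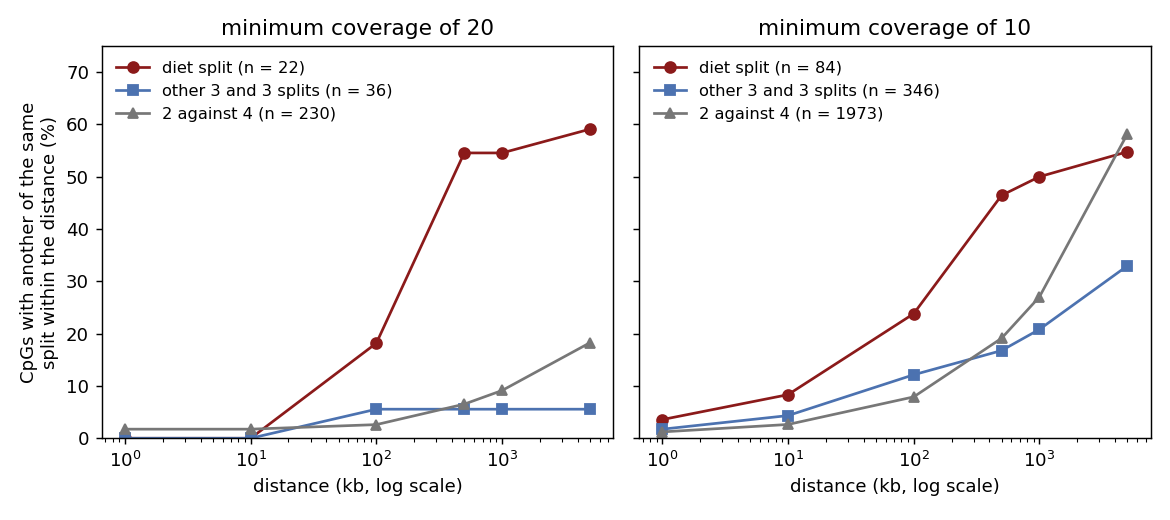
Share of members (%) that have another member with the same split of the libraries within a given distance, for the split by diet, the other splits with 3 libraries in each state and those with 2 against 4 (horizontal axis in kb, log scale). At 500 kb the share for the diets is 54.5% at a minimum coverage of 20 (left), against 5.56% and 6.52%, and 46.4% at a minimum of 10 (right), against 16.8% and 19.1%.

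The level of the surroundings was compared between the diets, but the comparison cannot decide whether it differed. Reads that set a member's value can also cover its neighbours, and the rule took members unevenly over the libraries. Averaged over all members with neighbours, the neighbours were methylated at 69.7% ± 0.293 in the iron-sufficient and at 70.1% ± 0.4998 in the iron-deficient group (SD, n = 3 each). The difference of 0.399 points had p = 0.2 in a two-sided exact permutation test over the 6 animals, for which the smallest p is 0.1, and it turned negative under 4 of the alternatives tried. It was 0.518 points with limits of 10% and 90% and 0.559 points with neighbours within 1000 nucleotides, with p = 0.1 in the exact permutation test in both.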

How the data were processed

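WGBS was analysed in hippocampi of 3 iron-sufficient and 3 iron-deficient pups, grouped by the sample labels. After adapter trimming, the authors used BS Seeker to map reads against rn4 and combined the 2 strands at a CpG. In the deposited files each CpG has a fraction of methylated reads and a coverage, which is a read count. Neither was normalized, and samples were kept apart. The removal of duplicate reads and the base from which positions are counted were not given in the sources used here. The number of methylated reads, computed as fraction times coverage, differed from whole numbers by at most 1.16e-10 in all 6 files. The total coverage per library is given above.

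The members and the lists were chosen with earlier results of these data known. Members were joined into a cluster where the next one was within 200 nucleotides. The regions named are the 8 clusters with the most members, the shorter first, up to 4 clusters separating the diets, of which there were none, and the 4 members with the largest minimum coverage that had no other member within 5000 nucleotides and at least 2 neighbours on each side within 1000. The diet-separating members and runs named beside them were chosen after their values were seen. Neighbours and clusters were computed with Python 3.11.15, numpy 2.4.6, scipy 1.17.1, pandas 2.3.3 and pyarrow 21.0.0. The finding of planted members was checked on simulated independent reads, which lack the spread of the real libraries. The exact tests were checked against known answers, while clusters were not checked in this way. The diets were compared with exact permutation tests (two-sided). Neither these nor the planned sign-flip tests over the animals are used as support, since the rule used the same reads. Counts were given with Clopper-Pearson intervals at 95%, which treat the CpGs or pairs counted as independent. Alternatives varied the coverage minimum, the limits, the neighbour distance and coverage, the replicate block and each library left out. No sequence, gene or promoter is given, since the reference table used here is of another build.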

Additional observations from a re-analysis of the deposited data

Results flagged for a closer look

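Chromosome X was left out of the rule. The same criteria found 13 all-or-none CpGs there among 6435 eligible ones, or 2.02 per 1000, below the lowest autosome at 2.70. With only 13 CpGs and neither an interval nor a test, whether the density differs from that of the autosomes cannot be told. The CpGs on chromosome X are few. They are given as a signal outside the chromosomes of the main comparisons, where they entered only an alternative that included chromosome X, and the sexes of the pups were not given in the sources used here.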

How the results depend on the processing

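The number of all-or-none CpGs followed the settings. It was 30177 of 4663256 eligible CpGs at a minimum coverage of 10 and 550 of 484467 at 30, against 5018 of 1613247. It was 9777 with limits of 10% and 90% and 2083 with only 0% and 100%. With 1 library left out it was 5986 to 14008, where fewer libraries have to meet the rule and more CpGs are eligible. The number was over 1.5 times higher without iron-sufficient replicate 1 or 3 or iron-deficient replicate 1 or 3. Without iron-sufficient replicate 2 it was 5986 of 2716489 eligible CpGs, and only there was the share lower than with all libraries. The share separating the diets was 0.630% to 1.24% with 1 library left out and 7.64% with at least 2 animals in each state, a restriction added after seeing the data.

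The planned difference at the neighbours between methylated and unmethylated members mixes different places and supports nothing. In the exact permutation test of signs its p was 0.0625 in the main setting. The p was 0.03125, the smallest that 6 animals allow, at a minimum coverage of 10 (38.3 points), with limits of 10% and 90% (44.2) and within 50 nucleotides (52.4). Under all other alternatives the p of that test was 0.0625 or 0.125. With 1 library left out, 0.0625 is the smallest p that the remaining animals allow. The p was 0.125 without iron-sufficient replicate 3 and without iron-deficient replicate 2. The planned difference was 27.0 to 39.3 points with 1 library left out, the lowest without iron-sufficient replicate 2. The difference within members, added after seeing the data, was 7.18 to 9.57 points with 1 library left out. The relative coverage changed sign at a minimum coverage of 10 (-0.0728), with limits of 10% and 90% (-0.00573), with only 0% and 100% (-0.00503), with coverage capped at 4 times the median (-0.0235) and with 1 library left out (-0.0775 to -0.00204). The difference between diets at the neighbours changed sign at a minimum coverage of 30 (-1.001), within 50 nucleotides (-0.298) and with a neighbour coverage of 20 (-0.205), and was -0.0940 to 1.15 with 1 library left out, negative without iron-sufficient replicate 2. The cause was not tested for any of these.

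With the replicate block the difference between diets was 0.399 points (p = 0.25, exact permutation test, the smallest 3 pairs allow). Same-numbered samples did not deviate together (r = -0.000327, 0.00067 and 3.75e-06), so the numbers were not taken to pair the animals.

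Members followed by their neighbours were 1.63% to 19.9% over the alternatives in distance, and 6.45% without iron-sufficient replicate 2.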
